A study of Mus musculus with 6 samples.

Results

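The genes of histone lysine methyltransferases, histone lysine demethylases, 2 histone acetyltransferases and the zinc-dependent histone deacetylases were followed in RNA of lung B cells from 5xFAD and wild type (WT) mice. Members were taken by symbol: every gene of the Kmt2, Kmt5, Kdm, Setd and Hdac families, with Ezh1, Ezh2, Ep300, Crebbp, Nsd1 and Suv39h2, and without Kdm5c, Kdm5d and Kdm6a. The rule matched 48 rows, which stand for 47 of the 22481 genes in the table, since Hdac4 has 2 rows whose values were summed. The rule reads symbols and no measured value. The H4K20 enzyme Kmt5a is present under its older symbol Setd8, while Jhdm1d, Suv420h1 and Suv420h2, older symbols of Kdm7a, Kmt5b and Kmt5c, were not matched and are not members.

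The 5xFAD group held 3 samples and the WT group 3 samples, all of C57BL/6 strain, 3 months of age and lung origin, with B cells taken by magnetic selection. The 5xFAD line is a model of Alzheimer's disease that carries mutated human APP under the Thy1 promoter, which drives expression mainly in neurons, so the lung B cells are not the intended site of expression. Whether a sample was 1 animal or a pool is not in the labels, nor is the sex, and p-values therefore measure the spread between these samples. The comparison asks whether these enzyme genes differed between 5xFAD and WT cells.

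Histone methyltransferases place methyl groups on lysines of histone tails, and the position decides the context: methylated H3K4 marks promoters and enhancers, H3K36 the bodies of transcribed genes, and H3K27 and H3K9 silent chromatin. Demethylases of the amine oxidase and JmjC classes take these groups off, Ep300 and Crebbp add acetyl groups at enhancers, and histone deacetylases remove them within corepressor complexes. In B cells the balance of these enzymes is known from lymphoma, in which KMT2D, CREBBP, EP300 and EZH2 are recurrently mutated in humans, and from germinal centre studies in mice.

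The libraries were shallow, with 693172, 782297 and 706349 estimated counts in 5xFAD replicates 1, 2 and 3 and 669030, 692912 and 628581 in WT replicates 1, 2 and 3. Estimated counts are the authors' estimates of fragments per gene, of which 94.2% to 97.3% in a library were whole multiples, within 0.05, of a step of 0.917 to 1.04 counts, so they had been rescaled by library. FPKM are fragments scaled by gene length and library size. The enzyme genes together held 5117, 5383 and 4115 counts in 5xFAD and 4276, 3542 and 3263 in WT. With at least 0.5 counts taken as detected, 42, 45 and 44 of the 47 members were detected in the 5xFAD libraries and 40, 41 and 35 in the WT libraries. Over all genes, 10490, 11780 and 11162 were detected in the 5xFAD libraries and 9170, 10381 and 7929 in the WT libraries. Neither members nor all genes overlapped between genotypes in number detected, so nothing is read from the member numbers. WT replicate 3 had the fewest of both, and several members otherwise present were at 0 or near 1 count in it. Values without it are given for several members. The mouse App row did not separate the genotypes (30.9, 40.9 and 43.6 FPKM in 5xFAD; 27.8, 52.4 and 33.8 FPKM in WT). The row of the promoter gene Thy1 was low and did not overlap, at 2.16, 3.5 and 7.64 FPKM in 5xFAD and 0, 0.31 and 0.965 FPKM in WT. Its counts were 6.98, 11.4 and 24.8 in 5xFAD and 0, 1.0 and 3.12 in WT (edgeR adjusted p = 0.465). Thy1 averaged under 1 FPKM in WT and entered the test through 5xFAD alone, which fixed its direction of mean FPKM, and the cause was not tested.

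Markers of the labelled cell type were present in every library, and so were those of other lung cells. The 12 B cell markers summed to 640, 747 and 395 FPKM in 5xFAD and 362, 294 and 317 FPKM in WT, with 12 of 12 higher on average in 5xFAD and none at 0 in all libraries. The 12 endothelial markers summed to 508, 464 and 420 FPKM in 5xFAD and 521, 648 and 572 FPKM in WT, with 2 of 12 higher in 5xFAD. Monocyte and macrophage markers summed to 177 to 549 FPKM in 5xFAD and 200 to 342 FPKM in WT (5 of 8 higher). Neutrophil markers summed to 239 to 545 FPKM in 5xFAD and 191 to 500.0 FPKM in WT (2 of 5 higher, Ly6g at 0 in all), and epithelial markers to 172 to 231 FPKM in 5xFAD and 179 to 386 FPKM in WT (3 of 7 higher). Markers of T and NK cells summed to 7.86 to 15.6 FPKM in 5xFAD and 9.3 to 21.6 FPKM in WT (4 of 8 higher), and those of fibroblasts and muscle to 30.4 to 117 FPKM in 5xFAD and 23.4 to 45.6 FPKM in WT (4 of 6 higher). B cell and endothelial markers thus moved with genotype without overlap, and their part in the results was not tested. In such bulk samples fewer cells of a type and less RNA per cell cannot be told apart.

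Of the enzyme genes, 42 reached a mean of 1 FPKM, and 0 of them were called between 5xFAD and WT (edgeR quasi-likelihood test, p adjusted over 9651 genes after Benjamini and Hochberg, limit 0.05), where 0.114% of all tested genes were called. At an unadjusted p under 0.05 there were 2 of 42 (4.76%), Kmt2d on the higher side and Hdac8 on the lower side, against 12% of all tested genes. Many genes reached the filter through 1 genotype alone. Over all tested genes these were 1183 through 5xFAD, 496 of them at that p, and 656 through WT, 183 of them at that p. Hdac8 entered through WT alone and Hdac3, named below, through 5xFAD alone, so nothing is read from these shares. DESeq2 called 0 members (1 adjusted p not available), against 0.642% of all tested genes, and had 3 (Hdac3, Hdac8 and Kmt2d) at an unadjusted p under 0.05, against 11.3%. On log2(FPKM + 1) limma called 0 members and 0 of all tested genes, with 2 members (Hdac3 and Hdac8) at an unadjusted p under 0.05, against 11.9%. Of the 42, 24 had a positive and 18 a negative log2 fold change of counts, 5xFAD over WT, with a median of 0.15, beside 54.1% positive and a median of 0.11 over all tested genes. Without WT replicate 3 the members' median was 0.01, beside 0.02 over all tested genes, and 3 members, Hdac6, Kmt2d and Setd1a, were at an unadjusted p under 0.05, against 13.5% of all tested genes. The remaining 5 members, Hdac9, Hdac11, Setd4, Kdm4d and Suv39h2, lay under the filter.

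**Figure D1:**
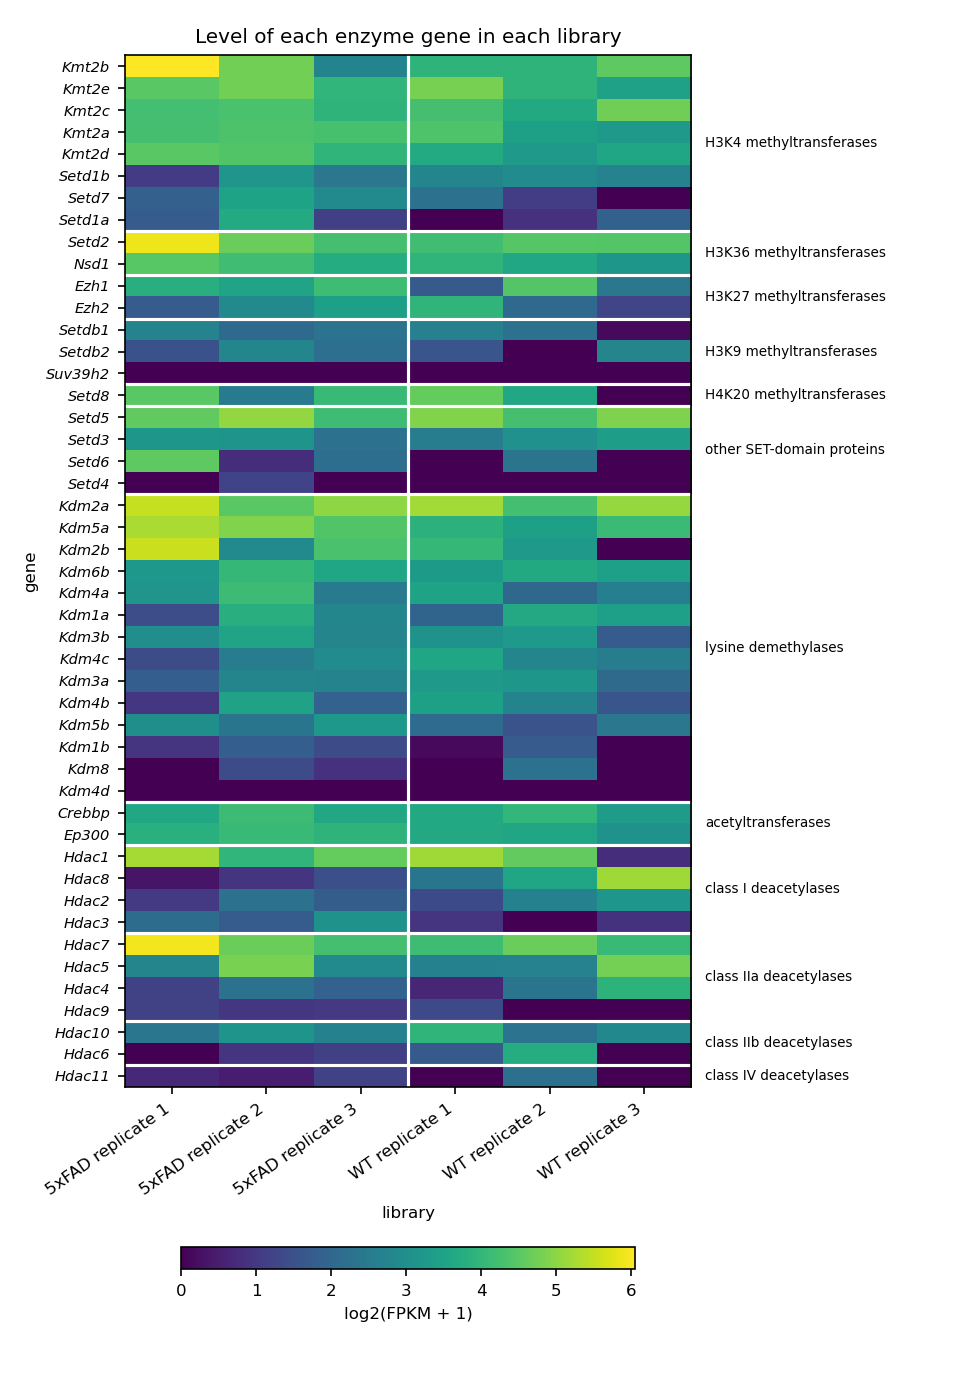
Level of each of the 47 enzyme genes (down the page, grouped by role) in each of the 6 libraries (across, 5xFAD left and WT right), coloured by log2(FPKM + 1) from 0 (dark) to 6 (yellow). Kdm4d and Suv39h2 are at 0 throughout, Kdm2a is at 17.8 FPKM or more in every library, and WT replicate 3 has the fewest detected members, 35.

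On the FPKM scale Kdm2a, Hdac7, Setd2, Kmt2b and Setd5 had the highest levels, with means over all 6 libraries of 30.7, 26.6, 26.5, 24.6 and 24.6 FPKM. These are a demethylase of H3K36, a class IIa deacetylase of lymphocytes and endothelium, the enzyme that makes H3K36 trimethylation, an H3K4 methyltransferase and a SET-domain protein of chromatin complexes. Their order is not resolved, because the SD within 5xFAD was 11.4, 22.6, 21.5, 30.1 and 7.89 FPKM, wider than the gaps between them. Ranks of the group means are no better resolved. Kmt2b ranked 4 in 5xFAD and 8 in WT, and Setd5 ranked 7 in 5xFAD and 2 in WT. Hdac1 ranked 6 in 5xFAD and 3 in WT. Single libraries weighed on these means: Kmt2b was at 64.9, 26.1 and 5.59 FPKM in 5xFAD, and Hdac1 at 35, 23.1 and 0.733 FPKM in WT.

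Among the H3K4 methyltransferases, Kmt2d carried the smallest p of all members in edgeR, while Hdac8 did in DESeq2 and limma. Kmt2d encodes a large methyltransferase that places H3K4 monomethylation at enhancers. It was at 21.6, 20 and 14.6 FPKM in the 5xFAD libraries, against 11.9, 8.56 and 10.7 FPKM in the WT libraries. The lowest 5xFAD library was above the highest WT library. The counts were 866, 802 and 585 in 5xFAD and 436, 342 and 428 in WT, the largest total of any member. The means were 18.8 ± 3.67 FPKM in 5xFAD and 10.4 ± 1.71 FPKM in WT (SD, n = 3 each), and the log2 fold change of counts was 0.79 (SE 0.29, 95% interval 0.19 to 1.40; edgeR adjusted p = 0.302). Without 5xFAD replicate 1 it was 0.53 and without WT replicate 2 it was 0.63, both no longer past an unadjusted p of 0.05, and limma on log2(FPKM + 1) gave an adjusted p of 0.579. The gene (ENSMUSG00000048154) lies on the minus strand of chromosome 15 at 98831669 to 98871204 of GRCm38, and its longest GENCODE M21 transcript has 55 exons and 19823 bases.

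The other members of this class overlapped between the genotypes in FPKM. Kmt2b was at 64.9, 26.1 and 5.59 FPKM in 5xFAD and 14.2, 14.3 and 22.4 FPKM in WT, with 5xFAD replicate 1 far above the other 5 libraries, and its counts were nearly level (log2 fold change -0.01, SE 0.42, edgeR adjusted p = 0.996). Kmt2e, a family member with little catalytic activity of its own, was at 21.7, 25.9 and 14.8 FPKM in 5xFAD and 26.9, 14.3 and 9.97 FPKM in WT, with a log2 fold change of 0.21, or 0.01 without WT replicate 3. Kmt2a, the mixed lineage leukaemia gene, was even in 5xFAD at 18.1, 19.4 and 18.4 FPKM and spread in WT at 19.8, 9.85 and 8.44 FPKM. The partner of Kmt2d at enhancers, Kmt2c, had 399, 397 and 350 counts in 5xFAD and 228, 208 and 308 in WT (log2 fold change 0.49, SE 0.32, edgeR adjusted p = 0.591). These groups did not overlap in deposited counts but did overlap in counts scaled to the library and in FPKM, at 18.0, 18.8 and 14.2 in 5xFAD and 18.1, 11.8 and 25.6 in WT. Of the 8 genes in the class, 6 had a positive log2 fold change. Setd1b went the other way at 1.06, 7.93 and 4.22 FPKM in 5xFAD and 5.86, 6.49 and 5.41 FPKM in WT, and Setd1a and Setd7 were at or near 0 in 1 WT library each.

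Promoter sequence is shown for the member with the smallest p in edgeR, for the more abundant H3K27 methyltransferase and for the most abundant deacetylase, which differ in how many CG pairs they hold. RefSeq promoters of GRCm38.p6, 250 bases before to 50 after a start, were matched by symbol for 34 of the 47 members. Taking for each gene its promoter with the most CG pairs, the members held a median of 28.5 CG pairs in 300 bases (range 1 to 56), against 8.0 over the 27025 genes of that table. The GC box GGGCGG, on either strand, was in 23 of 34 (67.6%) against 38.2% of all genes, and TATAAA, on either strand, was in 2 of 34 (5.88%), Hdac8 and Hdac9, against 15.7%. Of the 11 matched members with a mean of at least 10 FPKM, the median was 35 CG pairs (range 1 to 56). Of the 5 with a mean under 1 FPKM it was 22 (range 3 to 33), so the ranges overlapped. The 250 bases before the start are printed 5′ to 3′ on the gene's strand, with CG pairs in capitals, for Kmt2d (chr15:98871206-98871455, minus strand, 26 CG pairs), Ezh1 (chr11:101226464-101226713, minus strand, 14 CG pairs) and Hdac7 (chr15:97844503-97844752, minus strand, 6 CG pairs). Each is the first listed start whose 250 bases overlap no GENCODE exon, and for Hdac7, with 4 promoters in the table, it is not the promoter counted above, which has 35 CG pairs and a GC box.
Kmt2d: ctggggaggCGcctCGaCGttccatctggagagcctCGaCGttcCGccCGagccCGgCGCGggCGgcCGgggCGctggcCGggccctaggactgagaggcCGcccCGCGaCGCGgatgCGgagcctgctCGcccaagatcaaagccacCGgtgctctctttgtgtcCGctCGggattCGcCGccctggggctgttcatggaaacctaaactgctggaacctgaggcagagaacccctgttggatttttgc
Ezh1: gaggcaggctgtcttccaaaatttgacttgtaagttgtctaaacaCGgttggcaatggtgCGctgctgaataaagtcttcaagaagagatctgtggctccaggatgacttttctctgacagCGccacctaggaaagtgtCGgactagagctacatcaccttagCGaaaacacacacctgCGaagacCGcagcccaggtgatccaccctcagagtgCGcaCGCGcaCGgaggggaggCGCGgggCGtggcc
Hdac7: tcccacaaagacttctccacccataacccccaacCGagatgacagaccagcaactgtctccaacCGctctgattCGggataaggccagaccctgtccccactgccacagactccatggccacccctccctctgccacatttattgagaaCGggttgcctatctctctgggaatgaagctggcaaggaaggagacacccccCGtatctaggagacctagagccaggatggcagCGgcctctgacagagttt
The Kmt2d stretch also holds the GC box, which overlaps CG pairs, and the printed stretches of Ezh1 and Hdac7 do not. A match of letters is a description of the sequence, and its relation to the levels was not tested.

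**Figure D2:**
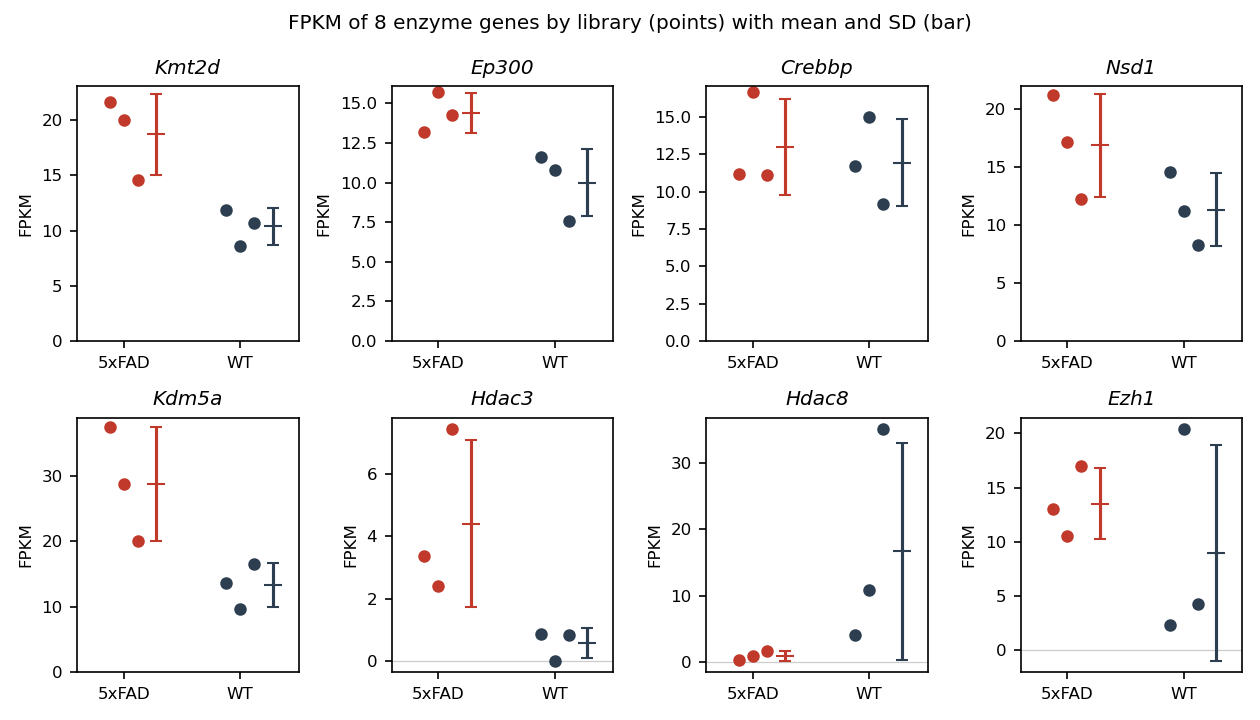
FPKM (vertical axes, from 0) of 8 enzyme genes in each library (points) with mean and SD (bar; n = 3 each), 5xFAD left and WT right. Kmt2d, Ep300, Kdm5a and Hdac3 have every 5xFAD point above every WT point, Hdac8 has every 5xFAD point below, and Crebbp, Nsd1 and Ezh1 overlap.

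Both H3K36 methyltransferases were well expressed. Setd2, which makes H3K36 trimethylation behind the elongating polymerase, was at 58.0, 24.3 and 18.1 FPKM in 5xFAD and 17.1, 20.8 and 20.5 FPKM in WT. Its counts were 293, 262 and 168 in 5xFAD and 248, 220 and 244 in WT (log2 fold change -0.08, SE 0.34, edgeR adjusted p = 0.957), so the high FPKM of 5xFAD replicate 1 is not matched by its counts. Nsd1, a dimethyltransferase of H3K36, was at 21.2, 17.2 and 12.3 FPKM in 5xFAD and 14.6, 11.2 and 8.25 FPKM in WT, with overlapping groups (log2 fold change 0.50, SE 0.33, edgeR adjusted p = 0.585). It was 0.27 without WT replicate 3 and 0.14 without 5xFAD replicate 1.

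The catalytic subunits of Polycomb repressive complex 2 both had a higher mean of log2(FPKM + 1) in 5xFAD, while their counts differed in direction. Ezh1, the form typical of resting cells, was at 13, 10.5 and 17.0 FPKM in 5xFAD and 2.28, 20.4 and 4.22 FPKM in WT, and WT replicate 2 alone stood above the 5xFAD libraries. On the count scale Ezh1 had a log2 fold change of 0.92 with an SE of 0.60 and an edgeR adjusted p = 0.588. Ezh2, the form of dividing cells, was at 2.38, 6.30 and 9.61 FPKM in 5xFAD and 14.5, 3.20 and 1.40 FPKM in WT (log2 fold change -0.30, SE 1.16, edgeR adjusted p = 0.954), and its log2 fold change was 1.66 without WT replicate 1. Proliferation markers summed to 12.4, 18.8 and 32.7 FPKM in 5xFAD and 49.7, 18.8 and 25.4 FPKM in WT, with 3 of 9 higher in 5xFAD and Ccnb1 at 0 in all libraries. The library with the highest Ezh2, WT replicate 1, was also the one with the highest sum of these markers, and their part in the Ezh2 levels was not tested.

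Enzymes of H3K9 and H4K20 were low or uneven. Setdb1, the H3K9 methyltransferase that silences endogenous retroviruses, was at 5.53, 3.21 and 3.96 FPKM in 5xFAD and 5.2, 3.76 and 0.115 FPKM in WT, and its locus in the table holds 33 listed genes, so the division of reads is uncertain. Its log2 fold change was 0.15 (SE 0.83), and -0.52 without WT replicate 3. Setdb2 ranged from 1.85 to 5.87 FPKM in 5xFAD and from near 0 to 5.70 FPKM in WT. Suv39h2, an H3K9 methyltransferase best known from the germ line and embryo, was listed at 0 in all 6 libraries. Setd8, which monomethylates H4K20 in the cell cycle, was at 21.5, 4.63 and 15.9 FPKM in 5xFAD and 23.5, 11.4 and 0 FPKM in WT (log2 fold change of counts 1.69, SE 0.96; edgeR adjusted p = 0.512), and its log2 fold change was 0.99 without WT replicate 3, 0.32 without 5xFAD replicate 1 and 2.73 without WT replicate 1.

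The 4 other SET-domain proteins held 1 well expressed gene. Setd5 was at 22.6, 32.6 and 17.0 FPKM in 5xFAD and 28.8, 18.3 and 28.3 FPKM in WT (log2 fold change 0.02, SE 0.36, edgeR adjusted p = 0.993). Setd3, an actin histidine methyltransferase despite its family name, was at 8.25, 7.77 and 3.84 FPKM in 5xFAD and 4.94, 7.30 and 9.38 FPKM in WT. Setd6 had 27.9, 0.946 and 4.59 counts in 5xFAD and 0, 5.02 and 0 in WT, and Setd4 was listed at 1.31 FPKM in 5xFAD replicate 2 and at 0 in all others.

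Of the 14 lysine demethylases 13 were tested, 8 with a positive and 5 with a negative log2 fold change and none at an unadjusted p under 0.05. Kdm2a was at 44.4, 21.7 and 31.3 FPKM in 5xFAD and 35.9, 17.8 and 33.0 FPKM in WT (log2 fold change 0.18, SE 0.35, edgeR adjusted p = 0.895). Kdm5a, a demethylase of trimethylated H3K4, was at 37.5, 28.7 and 20.1 FPKM in 5xFAD and 13.7, 9.74 and 16.5 FPKM in WT. These FPKM do not overlap, with means of 28.8 ± 8.75 in 5xFAD and 13.3 ± 3.39 in WT (SD, n = 3 each), but the counts do, at 182, 174 and 153 in 5xFAD and 113, 132 and 172 in WT. On the log2(FPKM + 1) scale the means differed by 1.04 (limma adjusted p = 0.441), while the log2 fold change of counts was 0.16 (SE 0.38; edgeR adjusted p = 0.926).

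The Kdm4 genes, which act on H3K9 and H3K36, differed in direction. Kdm4a had 53.9, 50.1 and 42.2 counts in 5xFAD and 18.8, 23.1 and 35.4 in WT, without overlap as deposited but with overlap in counts scaled to the library. Kdm4c had 12, 40.7 and 44.0 counts in 5xFAD and 55.4, 48.2 and 39.5 in WT, and Kdm4b had 7.98, 42.6 and 24.8 in 5xFAD and 68.2, 49.2 and 18.7 in WT. Their log2 fold changes were 0.79 (SE 0.69), -0.73 (SE 0.67) and -1.0 (SE 0.75), none past an unadjusted p of 0.05 in edgeR, and Kdm4d, a gene of the testis, was listed at 0 throughout. Kdm6b, the inducible H3K27 demethylase, was level at 8.36, 15.3 and 10.8 FPKM in 5xFAD and 8.73, 11.7 and 9.66 FPKM in WT. Kdm1a, the amine oxidase LSD1, ranged widely in both genotypes, from 1.71 to 13 FPKM in 5xFAD and 2.88 to 11.5 FPKM in WT. The remaining demethylases spanned mean levels from 1.03 FPKM (Kdm8) to 15.9 FPKM (Kdm2b), and Kdm2b was listed at 0 in WT replicate 3.

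Both acetyltransferases were present in every library. Ep300 was at 13.2, 15.7 and 14.3 FPKM in 5xFAD and 11.6, 10.8 and 7.60 FPKM in WT, with every 5xFAD library above every WT library. The means were 14.4 ± 1.28 FPKM in 5xFAD and 10 ± 2.12 FPKM in WT (SD, n = 3 each), and the log2 fold change was 0.41 (SE 0.33, 95% interval -0.28 to 1.09; edgeR adjusted p = 0.701), or 0.20 without WT replicate 3. Crebbp, its close paralog, was at 11.2, 16.7 and 11.1 FPKM in 5xFAD and 11.7, 15 and 9.16 FPKM in WT, with overlapping groups and a 95% interval of the log2 fold change from -0.72 to 0.72 (edgeR adjusted p = 0.998).

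Of the 9 tested deacetylases 3 had a positive log2 fold change of counts, with a median of -0.72, and 4 a positive difference of mean log2(FPKM + 1), with a median of -0.31. The summed level of all 11 deacetylases overlapped between genotypes, at 114, 87.7 and 71.1 FPKM in 5xFAD and 82.6, 93.0 and 107 FPKM in WT. Hdac8, a class I enzyme whose known substrate is cohesin, was at 0.274, 0.875 and 1.76 FPKM in 5xFAD and 4.07, 10.9 and 35.1 FPKM in WT. All 5xFAD libraries lay below all WT libraries, and WT replicate 3 stood far above the rest in FPKM. The counts were small, 0.997, 3.78 and 6.42 in 5xFAD and 14.8, 14.1 and 38.5 in WT. The log2 fold change was -2.78 (SE 1.26, 95% interval -5.37 to -0.19; edgeR adjusted p = 0.375), or -2.12 without WT replicate 3. Leaving out that library, or any 1 of the 5xFAD libraries, put it no longer past an unadjusted p of 0.05. Hdac8 averaged under 1 FPKM in 5xFAD and entered the test through WT alone, as Hdac6 and Kdm8 did. Hdac3 and Kdm1b entered through 5xFAD alone, so the filter fixed the directions of mean FPKM of all these genes. On log2(FPKM + 1) the means of Kdm8 differed by 0.01, the other way. Hdac8 (ENSMUSG00000067567) lies on the minus strand of chromosome X at 102284639 to 102505359 of GRCm38. Since the sex of the animals is not labelled, the Y-linked genes Ddx3y, Eif2s3y and Uty were summed and gave 74.5, 0 and 11 FPKM in 5xFAD and 23.8, 5.31 and 0 FPKM in WT, so 1 library of each genotype had none, and their part in the Hdac8 levels was not tested.

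Hdac3, the catalytic subunit of the NCoR and SMRT complexes, had the opposite pattern. It was at 3.38, 2.41 and 7.45 FPKM in 5xFAD and 0.864, 0 and 0.837 FPKM in WT, every 5xFAD library above every WT library. Its counts were 12.5, 9.46 and 27.4 in 5xFAD and 3.95, 0 and 2.08 in WT (log2 fold change 2.86, SE 1.53; edgeR adjusted p = 0.472), and limma on log2(FPKM + 1) gave an adjusted p of 0.365. Hdac1, the most abundant class I enzyme, was at 36.2, 14.8 and 23.5 FPKM in 5xFAD and 35, 23.1 and 0.733 FPKM in WT, and Hdac2 at 1.05, 3.74 and 2.42 FPKM in 5xFAD and 1.57, 5.30 and 7.97 FPKM in WT. The log2 fold change of Hdac1 was 0.33 (SE 0.80), and -0.34 without WT replicate 3. These paralogs share complexes, and neither separated the genotypes.

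Among class IIa and IIb deacetylases Hdac7 had the highest mean, with Hdac5 above it in 5xFAD replicate 2 and WT replicate 3. Hdac7 was at 60.2, 24.7 and 18.1 FPKM in 5xFAD and 16.9, 24.3 and 15.7 FPKM in WT (log2 fold change 0.65, SE 0.45, edgeR adjusted p = 0.622), and its log2 fold change was 0.40 without WT replicate 3. Hdac5 was high in 1 library of each genotype, at 5.68, 27.4 and 6.37 FPKM in 5xFAD and 5.26, 5.36 and 26.5 FPKM in WT. Hdac10, a polyamine deacetylase, was at 4.2, 7.73 and 5.28 FPKM in 5xFAD and 14.6, 3.96 and 6.04 FPKM in WT. Hdac6, the tubulin deacetylase and X-linked like Hdac8, was at 0, 0.864 and 1.2 FPKM in 5xFAD and 2.26, 12.4 and 0 FPKM in WT (log2 fold change -2.37, SE 1.67, edgeR adjusted p = 0.634), or -3.02, past an unadjusted p of 0.05, without WT replicate 3. Hdac4 had 6.98, 26.5 and 17.4 counts in 5xFAD and 2.97, 28.1 and 85.3 in WT. Hdac9 stayed between 0.936 and 1.26 FPKM in 5xFAD and was at 1.5, near 0 and near 0 FPKM in WT, and Hdac11, the single class IV enzyme, was at 0.586, 0.370 and 1.26 FPKM in 5xFAD and 0, 3.73 and 0 FPKM in WT.

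**Figure D3:**
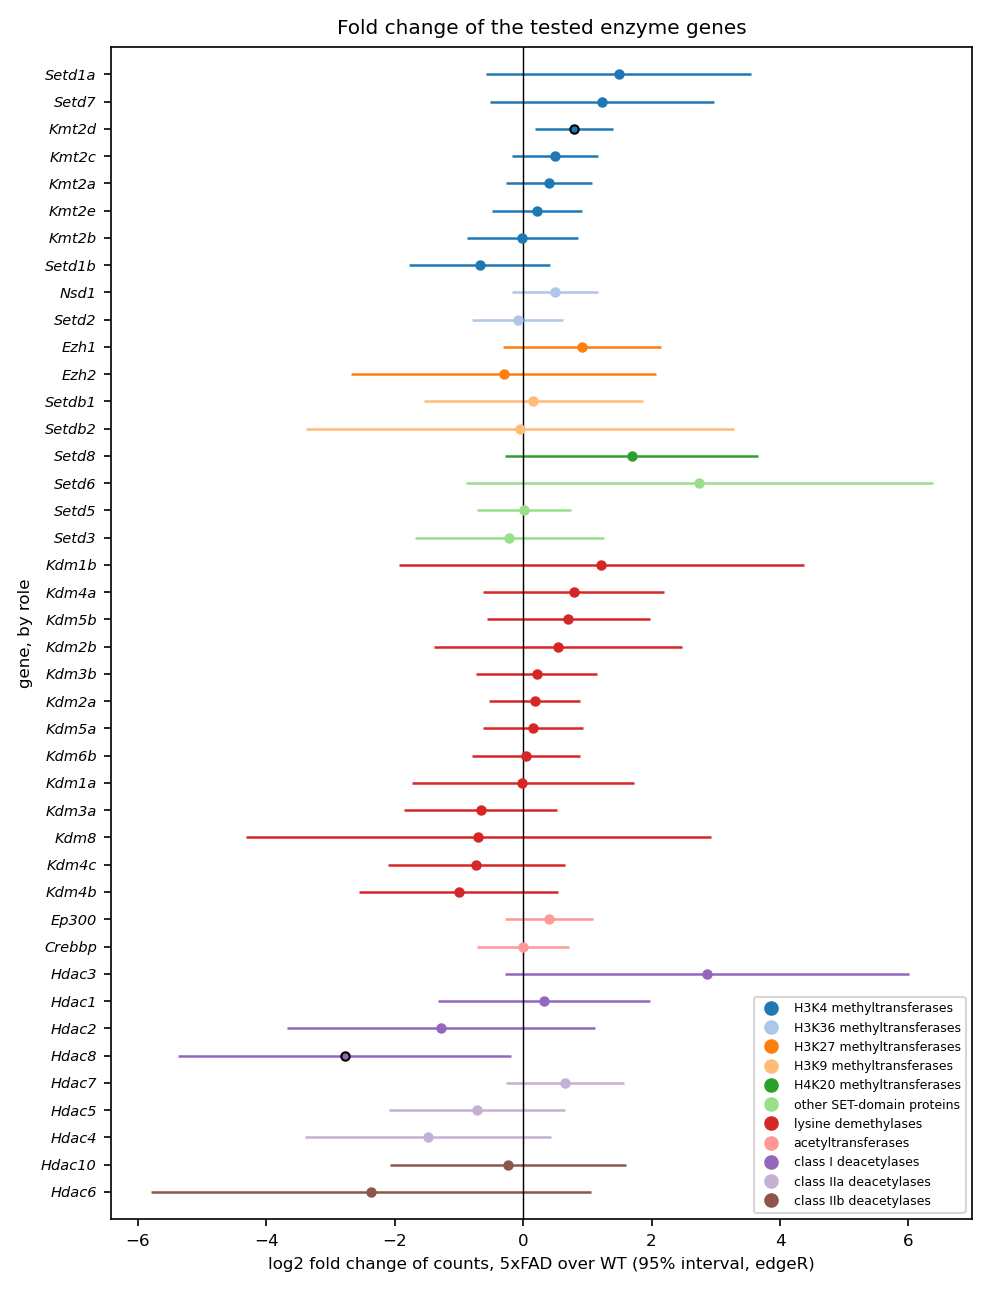
Log2 fold change of counts, 5xFAD over WT (horizontal axis), of the 42 tested enzyme genes (down the page, coloured by role), with 95% intervals from edgeR. The intervals of Kmt2d (black ring, 0.19 to 1.40) and Hdac8 (black ring, -5.37 to -0.19) leave out 0, all others include it, and none passed the adjustment over all genes.

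The width of the intervals followed the counts. In the 13 members with at least 600 counts over the 6 libraries, a limit chosen after the values were seen, SEs ran from 0.295 to 0.420 and log2 fold changes from -0.08 to 0.79, with 95% intervals between -0.87 and 1.40. These genes were Kmt2a, Kmt2b, Kmt2c, Kmt2d, Kmt2e, Nsd1, Setd2, Setd5, Kdm2a, Kdm5a, Kdm6b, Ep300 and Crebbp, and a difference of 4-fold either way lay outside all their intervals. In the other 29 members SEs ran from 0.446 to 1.77, and intervals reached -5.80 and 6.38, so a difference of 4-fold lay inside the widest of them.

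Groups did not overlap in FPKM for 5 of 42 members (11.9%), against 17.4% of all tested genes. Kmt2d, Ep300, Kdm5a and Hdac3 were higher in 5xFAD (4 of 42, against 13% of all tested genes) and Hdac8 was lower (1 of 42, against 4.42%). In counts as a share of the library without Lars2, which held 37.5% to 45.7% of the counts in each library, they were again 5 of 42 (17.4% of all tested genes), namely Kmt2d, Ep300 and Hdac3 higher (against 11.1% of all) and Hdac8 and Kdm4c lower (against 6.29%). Kdm5a is in the first set alone and Kdm4c in the second alone, and 4 of 42 were apart in the same direction on both scales, against 12.2% of all tested genes. These genes were singled out after their values were seen. Hdac3 averaged under 1 FPKM in WT and Hdac8 averaged under 1 FPKM in 5xFAD, so the filter fixed their directions of mean FPKM. Of all tested genes, 1183 entered through 5xFAD alone and 656 through WT alone, so nothing is read from these counts of separated genes.

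The scale mattered for many members. In 9 of 42 (21.4%) the direction differed between counts and FPKM, against 15.7% of all tested genes: Crebbp, Ezh2, Hdac5, Kdm8, Kmt2b, Kmt2c, Setd2, Setd5 and Setdb2. FPKM divides by length, so the counts per FPKM of a gene stay the same across libraries where the same length was used. Among the 27 members with at least 3 counts in all 6 libraries, that quotient varied by at most 1.1 times in 7 and by more than 2 times in 14, with a median of 2.03 times. It was 25.7 for Nsd1, 17.5 for Ep300 and 15 for Crebbp in every library.

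Other members showed a quotient that moved between libraries. For Kdm5a it was 4.83, 6.07 and 7.64 counts per FPKM in 5xFAD and 8.25, 13.5 and 10.4 in WT, with no overlap between genotypes. For Kmt2c it was 22.1, 21.1 and 24.7 in 5xFAD and 12.6, 17.6 and 12 in WT, also without overlap and in the other direction. For Kmt2b it ran from 2.28 in 5xFAD replicate 1 to 15.7 in 5xFAD replicate 3, and the 64.9 FPKM of 5xFAD replicate 1 came from 148 counts. For Hdac8 it was 4.32 and 3.65 in 5xFAD replicates 2 and 3, and 3.64, 1.29 and 1.1 in WT. Hdac8 had under 3 counts in 5xFAD replicate 1, where no quotient was taken. The cause of these shifts was not tested.

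**Figure D4:**
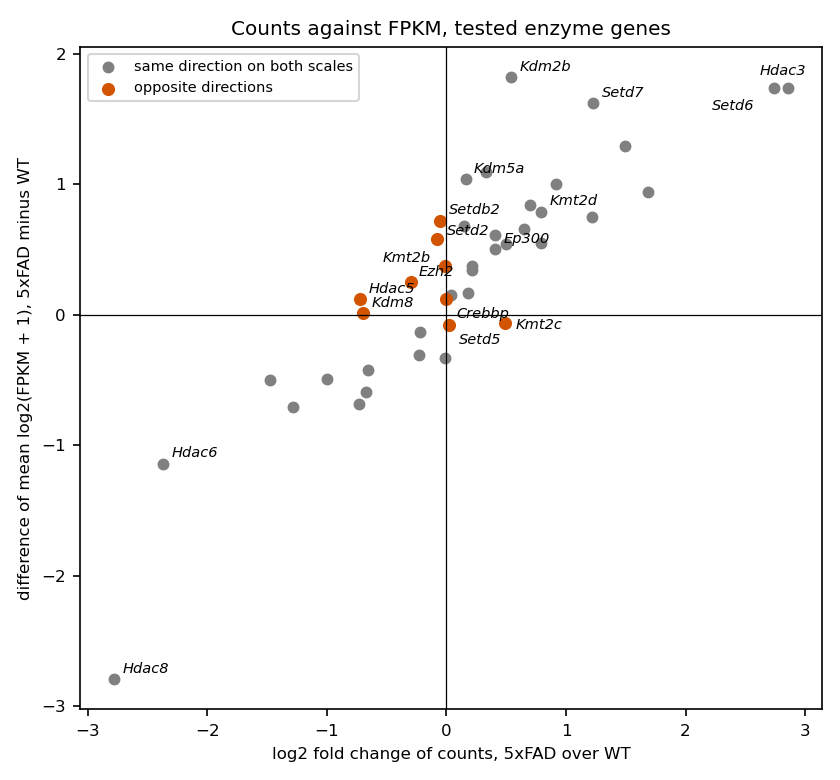
Each point is 1 of the 42 tested enzyme genes: the log2 fold change of counts, 5xFAD over WT (horizontal), against the 5xFAD mean minus the WT mean of log2(FPKM + 1) (vertical). The 9 orange points have opposite directions on the 2 scales, and Hdac8 (lower left) and Hdac3 (upper right) lie far from 0 on both.

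**Figure D5:**
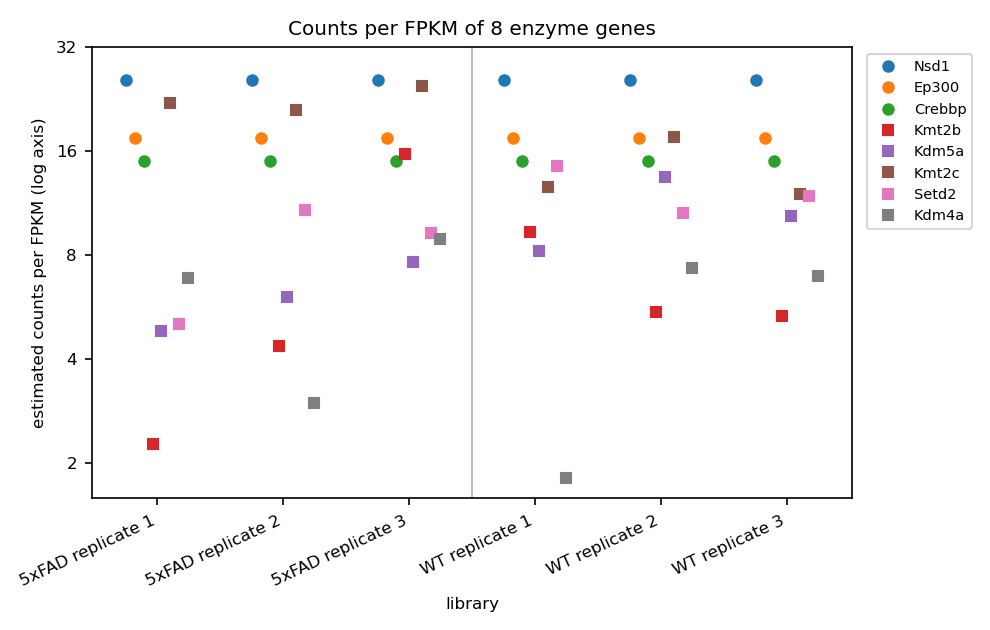
Estimated counts per FPKM (log axis) of 8 enzyme genes in each library, 5xFAD left and WT right of the grey line. Circles mark Nsd1, Ep300 and Crebbp, which hold 1 value in every library, and squares mark Kmt2b, Kdm5a, Kmt2c, Setd2 and Kdm4a, which do not.

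Partners of these enzymes, and related enzymes that are not members, were read from 7 lists, of which 82 genes were tested. None was called, 10 were higher at an unadjusted p under 0.05 (12.2%, against 8.46% of all tested genes) and 0 were lower (3.55% of all tested genes). Of the 10, Mta3, Sirt3, Sirt4, Smyd5 and Wdr5 averaged under 1 FPKM in WT and entered the test through 5xFAD alone. This fixed their direction of mean FPKM, so nothing is read from the count. Their median log2 fold change was 0.12. The smallest p belonged to Arid4b, a subunit of the Sin3 deacetylase complex, at 39.8, 17.9 and 15.7 FPKM in 5xFAD and 8.48, 7.0 and 5.34 FPKM in WT (log2 fold change 1.66, SE 0.44; edgeR adjusted p = 0.194). Its groups did not overlap.

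Of the deacetylase corepressor list 3 of 22 tested genes were on that side. Mta3, a NuRD subunit known from germinal centre B cells, was at 5.90, 10.6 and 21.5 FPKM in 5xFAD and 1.58, 0.941 and 0 FPKM in WT (edgeR adjusted p = 0.293). The most abundant gene of the list, Ncor1, which binds Hdac3, was level at 68.2, 39.4 and 64.9 FPKM in 5xFAD and 60.4, 72 and 54.7 FPKM in WT. Of the Polycomb partners, 3 of 13 were on that side, among them Jarid2, which targets complex 2 to chromatin. Jarid2 was at 23.7, 25.1 and 25.6 FPKM in 5xFAD and 19.1, 10.1 and 19 FPKM in WT. Its log2 fold change of counts was 1.45 (SE 0.55; edgeR adjusted p = 0.305). On log2(FPKM + 1) its means differed by 0.65 (limma adjusted p = 0.642). Bmi1, of complex 1, overlapped at 13, 3.5 and 2.42 FPKM in 5xFAD and 0.934, 1.14 and 5.42 FPKM in WT (edgeR adjusted p = 0.324).

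Several genes of the lists were at or near 0 in WT, so no fold change is given for them. Wdr5, the core subunit shared by all H3K4 methyltransferase complexes of the Kmt2 and Setd1 type, was at 1.93, 6.46 and 8.52 FPKM in 5xFAD and 0, 0.242 and near 0 FPKM in WT (edgeR adjusted p = 0.291), the 1 of 11 COMPASS genes at an unadjusted p under 0.05, while the most abundant, Hcfc1, overlapped at 7.42, 17.8 and 11.5 FPKM in 5xFAD and 33.9, 10.6 and 6.80 FPKM in WT. Sirt3, a mitochondrial deacetylase, was at 1.16, 6.80 and 1.42 FPKM in 5xFAD and listed at 0 in every WT library (edgeR adjusted p = 0.332). Its mitochondrial relative Sirt4 was at 1.67, 5.88 and 3.82 FPKM in 5xFAD and likewise at 0 in WT (edgeR adjusted p = 0.337). These 2 of 6 tested sirtuins were past that p in edgeR but not in DESeq2, and Sirt7, the most abundant, was at 34.2, 14.6 and 15.2 FPKM in 5xFAD and 13.2, 15.9 and 19.1 FPKM in WT. Smyd5 was at 0.924, 7.89 and 0.938 FPKM in 5xFAD and at or near 0 in WT (edgeR adjusted p = 0.305), the 1 of 14 other methyltransferases past it, and the most abundant of those 14, Whsc1l1, was at 34.4, 28.2 and 19.3 FPKM in 5xFAD and 29.8, 26.6 and 35 FPKM in WT. None of the 10 tested other acetyltransferases and none of the 6 tested JmjC proteins passed it. Their most abundant genes were Ncoa3, at 16.1, 27.8 and 13.7 FPKM in 5xFAD and 79.4, 31.9 and 19 FPKM in WT, and Jmjd1c, at 47.2, 35.6 and 31.0 FPKM in 5xFAD and 20.6, 14.1 and 27.1 FPKM in WT, where Jmjd1c did not overlap in FPKM but had a log2 fold change of counts of 0.22 (SE 0.32, edgeR adjusted p = 0.851).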

How the data were processed

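RNA-seq of magnetically selected lung B cells was deposited as 1 table of FPKM and estimated counts for 3 5xFAD and 3 WT samples. For the deposited FPKM and expected counts the tools listed, per the submitters' processing notes, were HISAT2 2.0.4, cutadapt 1.9.3, Cuffdiff and Cufflinks, with the builds mm10 and GRCm38. No release of the gene annotation is named there. Estimated counts need not be whole and were rounded.

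Of 22564 rows, 162 shared 79 symbols and were summed, leaving 22481 genes. The 9651 genes whose mean reached 1 FPKM were tested in R 4.3.3 with the edgeR 4.0.16 quasi-likelihood test (TMM, Benjamini-Hochberg adjusted p under 0.05). Alternatives used limma 3.58.1 and DESeq2 1.42.0. An interval uses the t quantile with edgeR's degrees of freedom, and an SE is the log2 fold change over the root of F. In simulated counts for this comparison on 9651 genes, 0%, 8%, 42% and 52% of 50 genes each at 2-, 4-, 8- and 16-fold were recovered. No pair of libraries agreed within sampling noise (chi-square per degree of freedom 6.72 to 19.31).

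Members and lists were chosen with earlier results of these data known. The named members are those at an unadjusted p under 0.05, those silent in 1 genotype and well counted in the other (0), and the 2 with the highest mean FPKM in each role, 23 in all. Named partners are the 2 per list with the smallest p under 0.05 and the 1 with the highest level. Other members described, such as Hdac3, Kmt2a, Kmt2c and the Kdm4 genes, were chosen after their values were seen.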

Additional observations from a re-analysis of the deposited data

How the results depend on the processing

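No enzyme gene was called under any alternative, and with each library left out in turn the number called was 0 to 0. The 11 genes called over the whole table became 7 with RLE size factors, 62 without an expression filter, 5 at a mean of at least 5 FPKM, 62 with DESeq2, 26 with the replicate block and 0 in each of the 3 limma fits, and ranged from 3 to 75 with a library left out. The replicate numbers did not pair the samples (correlations of same-numbered samples 0.00, 0.00 and -0.02), and the block changed no call of an enzyme gene. The 2 enzyme genes at an unadjusted p under 0.05 became 3 without a filter, with DESeq2 and by limma on log2(FPKM + 0.1), 1 under quantile normalization and 0 to 7 with a library left out. The 7 without WT replicate 1 stand against 13.6% of all tested genes and the 0 without 5xFAD replicate 1 against 6.01%. Their median log2 fold change of 0.15 became 0.37 by limma on log2(FPKM + 1) and 0.50 by limma on log2(FPKM + 0.1), and 0.01 to 0.30 with a library left out, while the median of all tested genes, 0.11, became 0.24 and 0.43 in those limma fits. Dividing counts by each library's step, an alternative chosen after seeing the data, left 0 called and 2 at an unadjusted p under 0.05.

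Direction was followed across the alternatives for the members named by rule. Of the other members, Kmt2c and Kdm8 turned by limma on log2(FPKM + 1), from 0.49 to -0.06 and from -0.70 to 0.01. Among the members named by rule, these log2 fold changes turned direction. Setd5 was -0.02 with RLE, -0.05 at 5 FPKM and -0.02 with DESeq2. Crebbp, Kmt2b and Setdb2 were each 0.03 with TMM without Lars2, and Crebbp and Kmt2b 0.01 without a filter. With the block Crebbp was 0.01 and Ezh2 0.71. The limma fits (log2(FPKM + 1), log2(FPKM + 0.1), quantile) gave Crebbp 0.12, 0.13 and 0.09, Ezh2 0.25, 0.36 and 0.11, Hdac5 0.12, 0.13 and 0.18, Kmt2b 0.37, 0.36 and 0.28, Setd2 0.58, 0.60 and 0.55, Setd5 -0.08, -0.08 and -0.05, and Setdb2 0.72, 1.72 and 0.46. With a library left out the ranges were -0.21 to 0.15 for Crebbp, -0.88 to 1.66 for Ezh2, -0.34 to 0.89 for Hdac1, -0.11 to 0.27 for Kdm2a, -0.03 to 0.32 for Kdm5a, -0.38 to 0.08 for Kmt2b, -0.41 to 0.04 for Setd2, -0.57 to 0.02 for Setd3, -0.13 to 0.16 for Setd5, -0.52 to 0.75 for Setdb1 and -1.70 to 1.62 for Setdb2. The cause was not tested. SEs reached 1.77 in the 29 members with under 600 counts in all and 0.42 in the other 13.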
